A study of Mus musculus with 12 samples.

Results

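The 46 genes of the table whose symbols begin with Atp5 or with Cox and a digit, together with Cyc1 and Cycs, were taken as a set, out of 5545 genes analysed. They encode parts of the mitochondrial ATP synthase, of cytochrome c oxidase (COX) and the cytochromes that feed electrons to it. A member was kept when at least 3 libraries held at least 10 reads of it, and 42 were kept: all 17 Atp5 genes, 23 of 27 Cox genes, Cyc1 and Cycs. The 4 genes not kept were Cox4i2, Cox7b2, Cox8b and Cox8c. The symbols were selected by name, but the set was chosen with earlier results of these data known. Of the 42, 40 also passed the filter on low counts for testing, which left out Cox6b2 and Cox7a1. That filter left 2606 genes in all. Symbols later in the alphabet than Cyp26b1 were not analysed here, and neither were genes that encode other subunits of these complexes under other names.

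The cells were natural killer (NK) cells and type 1 innate lymphoid cells (ILC1) sorted from the livers of 6 mice, labelled C57BL/6 and given as female C57BL/6J in the study's methods. Lean mice were weaned onto the RM1 diet, and obese mice onto a palatable obesogenic diet (824018, labelled as 45% AFE fat) with condensed milk, each for 12 weeks. NK cells were sorted as Lin- NK1.1+ CD49a- CD49b+ and ILC1 as Lin- NK1.1+ CD49a+ CD49b-, and both were taken from each mouse, which gave 4 groups of 3 libraries, NK and ILC1 libraries of lean mice and of obese mice. All mice were of 1 strain and no gene was altered. Mice carry the numbers 25, 26 and 27 within each diet, and a lean and an obese mouse of the same number are different animals.

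The ATP synthase is a rotary machine of the inner mitochondrial membrane. Protons that flow back through its membrane ring of c subunits turn a central stalk inside the F1 head, where the beta subunits form ATP, while a peripheral stalk keeps the head from turning along. COX, or complex IV, passes electrons from cytochrome c to oxygen and pumps protons. Its catalytic subunits are encoded by mitochondrial DNA, and the nuclear genes considered here encode the surrounding subunits and the factors that insert copper and heme. In lymphocytes, oxidative phosphorylation supports resting cells and the response to stimulation.

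Promoters of such genes are known for binding sites of NRF1, of ETS family factors such as GABP, and of YY1. RefSeq promoters on GRCm38.p6 (250 bases before to 50 after the start) were found for 35 of the 42 kept members and were searched on both strands for the letters GCGCANGCG (NRF1), CCGGAAG (ETS) and AANATGGCG (YY1). The letters of NRF1 were present in 9 of the 35 genes (25.7%), those of ETS in 13 (37.1%) and those of YY1 in 5 (14.3%). Over all 27025 genes with promoters of the same length the shares were 7.0%, 9.9% and 2.8%, and over the 2112 tested genes with a promoter they were 15.2%, 22.2% and 5.8%. At least 1 of the 3 was found in 21 of the 35 genes (60.0%), against 37.1% of the tested genes, and no matches of different motifs overlapped within a member's promoter. The letters found were ETS in Cox14, YY1 in Atp5b, NRF1 in Cycs, and NRF1 and ETS in Cox6a1. The following 4 promoters are shown because Cox14 had the smallest p of the set, Atp5b encodes the catalytic subunit, Cycs encodes cytochrome c, and Cox6a1 carries both NRF1 and ETS letters. They lie, in this order, at chr15:99725368-99725667 on the plus strand, chr10:128083057-128083356 on the plus strand, chr6:50566520-50566819 on the minus strand and chr5:115348909-115349208 on the minus strand. Each is written 5′ to 3′ in the direction of the gene, and capitals mark the matched letters on either strand.
Cox14: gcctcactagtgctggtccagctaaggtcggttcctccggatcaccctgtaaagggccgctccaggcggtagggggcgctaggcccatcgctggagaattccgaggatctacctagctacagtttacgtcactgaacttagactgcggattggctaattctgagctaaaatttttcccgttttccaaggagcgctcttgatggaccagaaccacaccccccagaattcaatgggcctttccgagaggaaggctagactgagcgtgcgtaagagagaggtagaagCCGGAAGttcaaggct
Atp5b: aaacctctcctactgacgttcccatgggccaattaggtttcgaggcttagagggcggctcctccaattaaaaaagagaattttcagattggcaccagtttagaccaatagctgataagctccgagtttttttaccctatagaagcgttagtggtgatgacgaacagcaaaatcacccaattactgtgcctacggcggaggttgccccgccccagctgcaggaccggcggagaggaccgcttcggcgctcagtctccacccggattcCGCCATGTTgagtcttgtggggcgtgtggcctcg
Cycs: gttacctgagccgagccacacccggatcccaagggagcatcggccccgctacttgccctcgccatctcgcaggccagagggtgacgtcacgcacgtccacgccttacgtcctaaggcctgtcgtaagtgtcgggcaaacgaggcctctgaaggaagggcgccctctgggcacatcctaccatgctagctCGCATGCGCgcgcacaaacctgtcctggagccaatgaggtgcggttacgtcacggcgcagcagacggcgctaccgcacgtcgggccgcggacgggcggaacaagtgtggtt
Cox6a1: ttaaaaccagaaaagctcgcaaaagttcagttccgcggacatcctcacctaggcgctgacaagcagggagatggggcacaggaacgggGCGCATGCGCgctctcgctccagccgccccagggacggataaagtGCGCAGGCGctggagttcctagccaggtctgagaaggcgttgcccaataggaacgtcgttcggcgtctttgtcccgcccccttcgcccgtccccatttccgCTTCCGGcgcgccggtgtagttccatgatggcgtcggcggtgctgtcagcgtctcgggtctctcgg

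Libraries were made from 2 ng of total RNA, and over the genes analysed they held between 1666637 and 2826766 counts. These totals cover part of the transcriptome and understate the full depth. Libraries differed in how many genes had a count, from 1948 in lean NK 27 and 2014 in obese ILC1 25 up to 3292 in obese ILC1 26. Of the genes with at least 100 counts in every other library, 6.61% had 3 or fewer counts in obese ILC1 25 and 3.76% in lean NK 27, against 0 in each of the other 10. Obese ILC1 26 held 87894 counts of Alb, the albumin gene of hepatocytes, where no other library held more than 497. These 3 libraries stand apart. Without them, log2 fold changes turned in sign for 12 of the 40 tested members for the diet in NK cells and 12 in ILC1, for 9, 7 and 6 between ILC1 and NK cells in lean mice, in obese mice and over both diets, and for 14 in the difference of the diet effect. The ILC1 and NK marker genes analysed followed the sort. Cxcr6, a chemokine receptor of ILC1, had 3575 to 23154 counts in ILC1 libraries and 61 to 855 in NK libraries, and Cma1, used here as an NK marker, had 35 to 660 and 6668 to 9908. Cd160, listed as a marker of both cell types, was called higher in ILC1 in lean mice and over both diets. Obese ILC1 26 held 490 counts of the ILC1 marker Cd200r1, 1056 of Cd160 and 7129 of Ccl5, another shared marker. Every other ILC1 library held at least 2809, 10286 and 48239 counts of these genes. The genes of NK1.1, CD49a and CD49b were not analysed here.

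Summed marker genes of other cells were highest in ILC1 libraries, in obese ILC1 26 for the hepatocyte, Kupffer cell and B cell genes. Summed over 22 hepatocyte genes, lean NK libraries held 50.5 to 127 CPM (counts scaled to a common library size with TMM), obese NK 141 to 523, lean ILC1 127 to 200 and obese ILC1 297 to 178000, the highest in obese ILC1 26, and 2 of 14 tested genes, Apoc1 and Apoc3, were called higher in ILC1 over both diets. Summed over 10 Kupffer cell genes, the ranges were 84.4 to 574, 118 to 160, 89.0 to 229 and 985 to 22900 CPM. Of 9 tested genes 3, Adgre1, C1qa and C1qc, were called higher in ILC1 over both diets. Cd163 of this list went the other way, with 72 to 786 counts in NK libraries and 0 to 2 in lean ILC1. In obese ILC1 it had 0 counts in 25 and 27 and 319 in 26. Lean NK 27 held 786 counts of Cd163 and 423 of Cd68. The 9 T cell genes summed to 492 to 989 CPM in lean NK and 786 to 1120 in obese NK. They summed to 7670 to 9130 CPM in lean ILC1 and 2470 to 7970 in obese ILC1, with Cd3d, Cd3e and Cd3g called higher in ILC1. Of the 9, Cd3g had the most counts in every ILC1 library (1991 to 13275) and Cd28 in every NK library (733 to 1865). Cd4, Cd5, Cd6 and Cd8b1 had at most 334, 253, 506 and 448 counts, each highest in obese ILC1 26. Cd8a was at 0 in every lean library of both cell types and at 201 counts in obese ILC1 26. The 7 B cell genes summed to at most 217 CPM in the NK and lean ILC1 libraries and to 99.5 to 9550 CPM in obese ILC1. Of 5 tested genes 1, Cd79b, was called higher in ILC1. Bank1 of this list had 51 to 458 counts in NK libraries, 0 to 15 in lean ILC1 and 0, 1816 and 47 in obese ILC1. Blk, a B cell kinase, had 333 counts in obese ILC1 26 and at most 2 in every other library. Whether RNA of these cells contributes to the values of the set was not tested, and in such bulk samples fewer cells of a type and less RNA per cell cannot be told apart.

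The set as a whole differed little between the groups, and no member reached the thresholds used for calling. Summed over the 42 members, the level was 28100, 31100 and 36500 CPM in lean NK libraries 25, 26 and 27, and 29500, 30800 and 27800 CPM in obese NK libraries. It was 31500, 32200 and 32200 CPM in lean ILC1 and 40700, 30700 and 35100 CPM in obese ILC1. The groups overlapped, except that every lean ILC1 library was above every obese NK library. The means were 31900 ± 4250 (SD, n = 3) in lean NK, 29400 ± 1530 in obese NK, 32000 ± 440 in lean ILC1 and 35500 ± 5000 in obese ILC1. The highest sums of the NK and of the ILC1 libraries were those of lean NK 27 and obese ILC1 25, the libraries with the fewest genes detected. As a share of all counts the set took from 2.01% in obese ILC1 26, where hepatocyte RNA was highest, to 3.94% in obese ILC1 25.

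**Figure D1:**
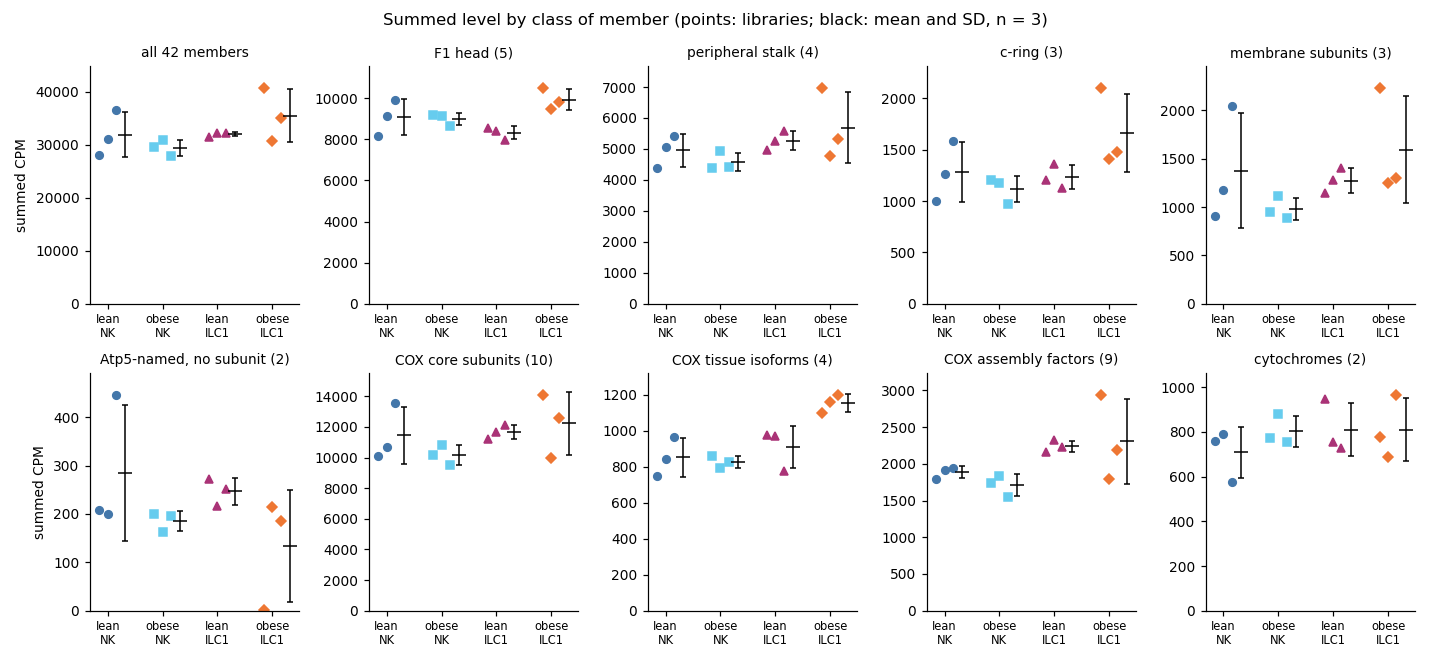
Summed CPM of all 42 members and of each class of member (y axes, linear and starting at 0) in the 4 groups (x axes), with the number of genes in brackets. Points are the libraries and black bars the mean and SD of 3 libraries. Lean NK 27 at 36500 CPM and obese ILC1 25 at 40700 CPM are the highest points of their cell types in the first panel. The panel of COX tissue isoforms, at 750 to 1200 CPM, includes Cox7a2l, grouped there by its name, which alone has 730 to 1190 CPM.

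Differences between groups were tested with edgeR's quasi-likelihood test over the 2606 genes with Benjamini-Hochberg adjustment, and a gene was called when its fold change exceeded 2 and its adjusted p was below 0.05. Between obese and lean NK cells 0 of the 40 members were called (0.0% of all tested genes), and 0 had an unadjusted p under 0.05 (1.19% of all genes), and the tools DESeq2 and edgeR's likelihood-ratio test also called 0. Between obese and lean ILC1 0 members were called (0.0% of all genes), and 3 had an unadjusted p under 0.05 (10.6% of all genes). Between ILC1 and NK cells 0 members were called in lean mice (2.3% of all genes), in obese mice (0.921%) and over both diets (4.34%), and unadjusted p-values under 0.05 were found for 1 member (13.3% of all genes), 10 members (14.2%) and 7 members (19.0%). For the difference of the diet effect between ILC1 and NK cells 0 members were called (0.0% of all genes), with 2 members at an unadjusted p under 0.05 (5.95%). DESeq2 called 1 member, Cox14, in obese mice and 0 in the other 5 comparisons. The share of members at this unadjusted p was above that of all genes between ILC1 and NK cells of obese mice and below it in the other 5 comparisons. The 10 members of obese mice became 1 with total counts in place of TMM, 2 with the likelihood-ratio test and 6 with each mouse as a block. They became 6 without the filter on low counts and 7 with only the libraries compared. There were 13 with DESeq2, with its size factors, with the authors' factors and with at least 10 counts in every library, and 11 with robust dispersions. The number ran from 2 to 14 as each library was left out, with 4 without obese ILC1 25 and 2 without obese NK 27.

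The members were measured with smaller errors than most genes. The standard error of the log2 fold change had a median of 0.25 over the members in each diet comparison, against 0.975 over all tested genes. The 95% interval of the change lay within 2-fold in either direction for 25 of 40 members between obese and lean NK cells (19.2% of all genes) and for 28 between obese and lean ILC1 (15.2%). It did so for 28 members between lean ILC1 and lean NK cells (14.5%) and for 20 in obese mice (14.5%). It did so for 30 members over both diets (25.1%) and for 16 members in the difference of the diet effect (7.02%).

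In NK cells most members were at slightly lower values in obese mice, 29 below 0 and 11 above on the log2 scale. Over all tested genes 57.1% were above 0. The members' median log2 fold change was -0.16, against 0.09 over all tested genes. Without lean NK 27 the median was -0.04, with 16 members above 0. In ILC1 27 members were above 0 and 13 below (51.1% of all tested genes above 0), with a median of 0.105 against 0.02. The median turned to -0.05, with 16 members above 0, when libraries were scaled by total counts, a scaling that moved the median of all genes to -0.18, and to -0.015 without obese ILC1 25. The libraries of the 2 diets did not overlap for Atp5g2, Cyc1 and Cox8a in NK cells (17.1% of all tested genes) and for Atp5a1, Atp5b, Atp5c1, Atp5g1, Atp5g2, Cox4i1 and Cox7a2l in ILC1 (15.9%). All of these were higher in obese mice with the exception of Cox8a. With 3 libraries against 3, an exact two-sided permutation test of 1 gene cannot give less than p = 0.1.

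**Figure D2:**
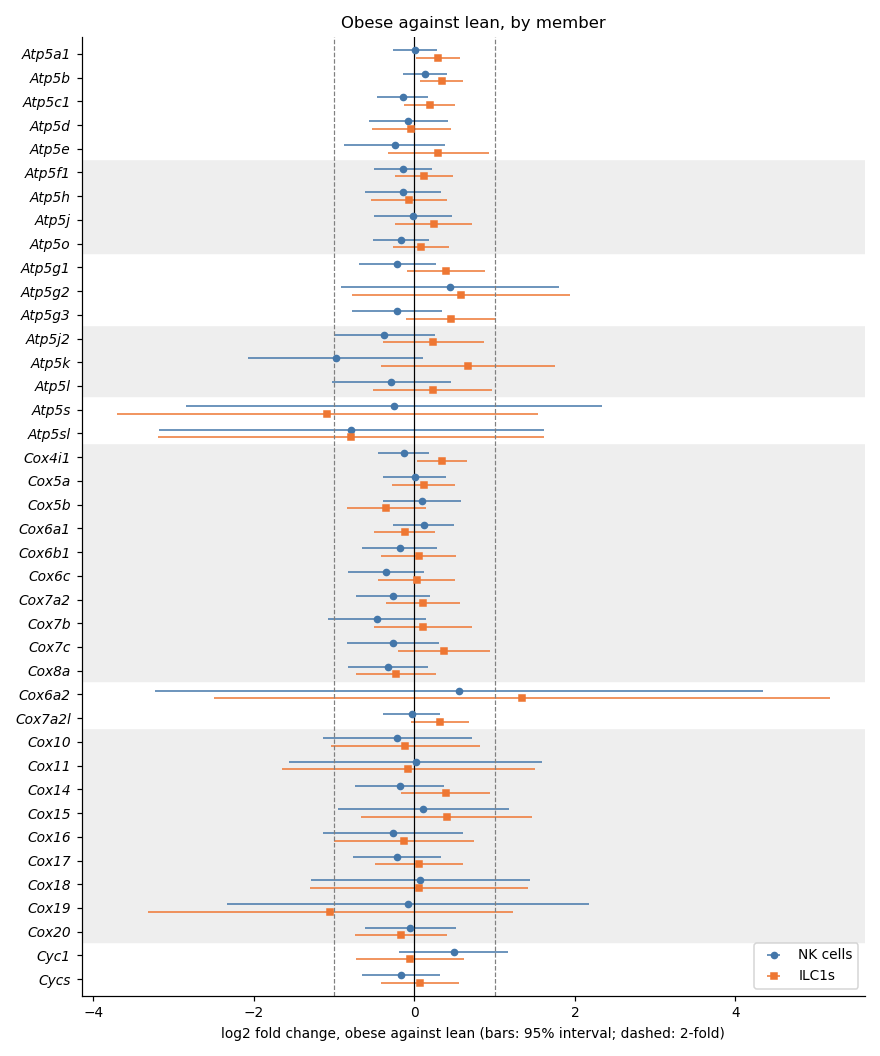
Log2 fold change between obese and lean mice (x axis) for the 40 tested members (y axis, ordered by class, shaded in turn), in NK cells (circles) and ILC1 (squares), with 95% intervals. Dashed lines mark a 2-fold change. In ILC1 the intervals of Atp5b, Cox4i1 and Atp5a1 lie just above 0, and those of Cox6a2, Atp5s and Atp5sl are the widest.

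Between ILC1 and NK cells of lean mice 27 members were above 0 and 13 below (53.3% of all genes above 0). Their median was 0.08 on the log2 scale, close to the 0.06 over all genes. In obese mice the members were slightly higher in ILC1, 33 above 0 and 7 below (51.0% of all genes above 0). Here the median was 0.33, against 0.02 over all genes. In lean mice the median turned to -0.02 when lean NK 25 was left out. In obese mice it was 0.17 with total counts, with 23 members above 0 and a median of all genes of -0.17, and 0.28 without the 3 libraries that stand apart. The NK and ILC1 libraries did not overlap for 9 members in lean mice (24.8% of all genes), of which Atp5j, Cox14, Cox19, Cox5b, Cox6a1 and Cyc1 were higher in ILC1 and Atp5a1, Cox4i1 and Cycs lower. In obese mice they did not overlap for 14 members (24.1%), 13 higher in ILC1 and Atp5d lower. Over both diets the median was 0.23 against 0.04 over all genes, and 1 member, Cox14, had an adjusted p under 0.05 without the fold change threshold (5.79% of all genes). DESeq2 gave 3 such members over both diets, and leaving out the 3 libraries that stand apart gave 6. Without obese ILC1 25 the median was 0.10 over both diets and 0.20 in obese mice. The difference of the diet effect between ILC1 and NK cells was above 0 for 31 members and below 0 for 9 (47.5% of all genes above 0). Its median was 0.25 against -0.05 over all genes, and with total counts these medians were 0.04 and -0.29. Without obese ILC1 25 the members' median was 0.15. Within the 6 mice, Cox14 and Cox5a were higher in ILC1 than in NK cells of the same animal in 6 of 6. For 13 further members this held in 5 of 6, for 15 in 4, for 5 in 3, for 4 in 2 and for 1 in 1. The shares over all tested genes were not computed, so these counts are not read as a trait of the members.

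**Figure D3:**
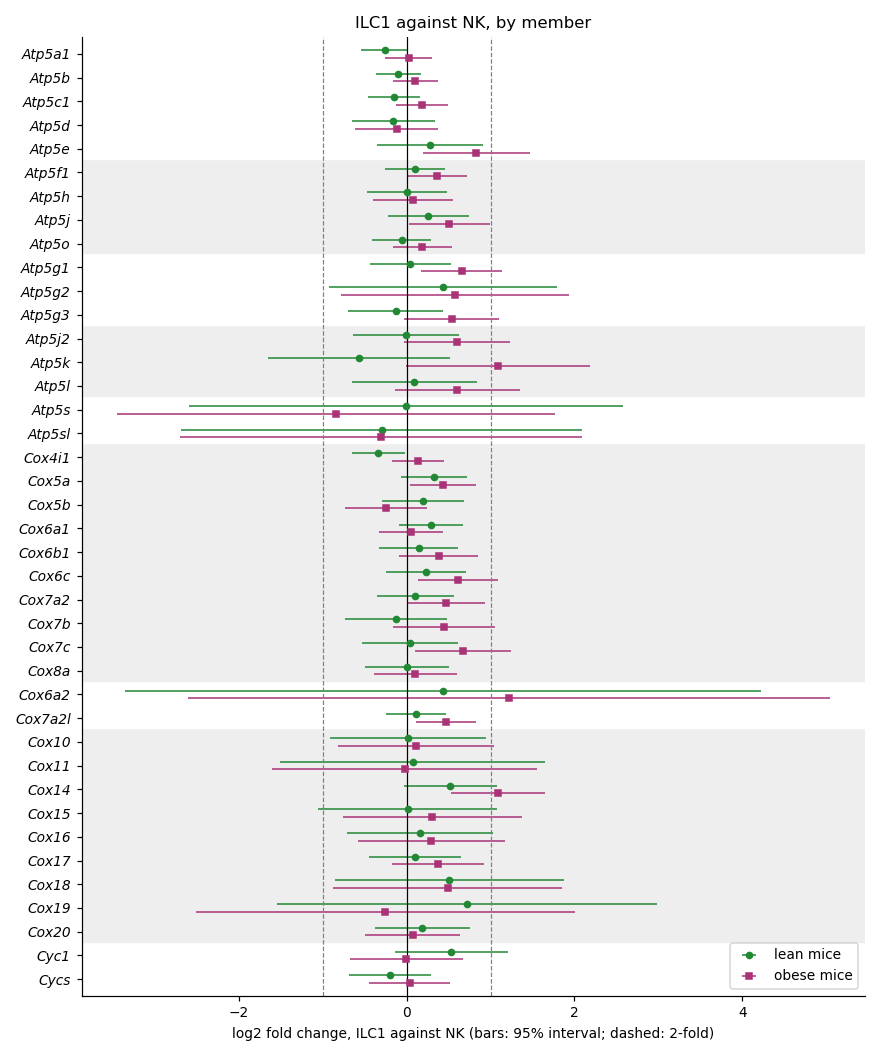
Log2 fold change of ILC1 against NK cells (x axis) for the 40 tested members (y axis, ordered by class, shaded in turn), in lean mice (circles) and obese mice (squares), with 95% intervals and dashed lines at a 2-fold change. Cox14 in obese mice, at 1.09, has an interval from 0.53 to 1.65.

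**Figure D4:**
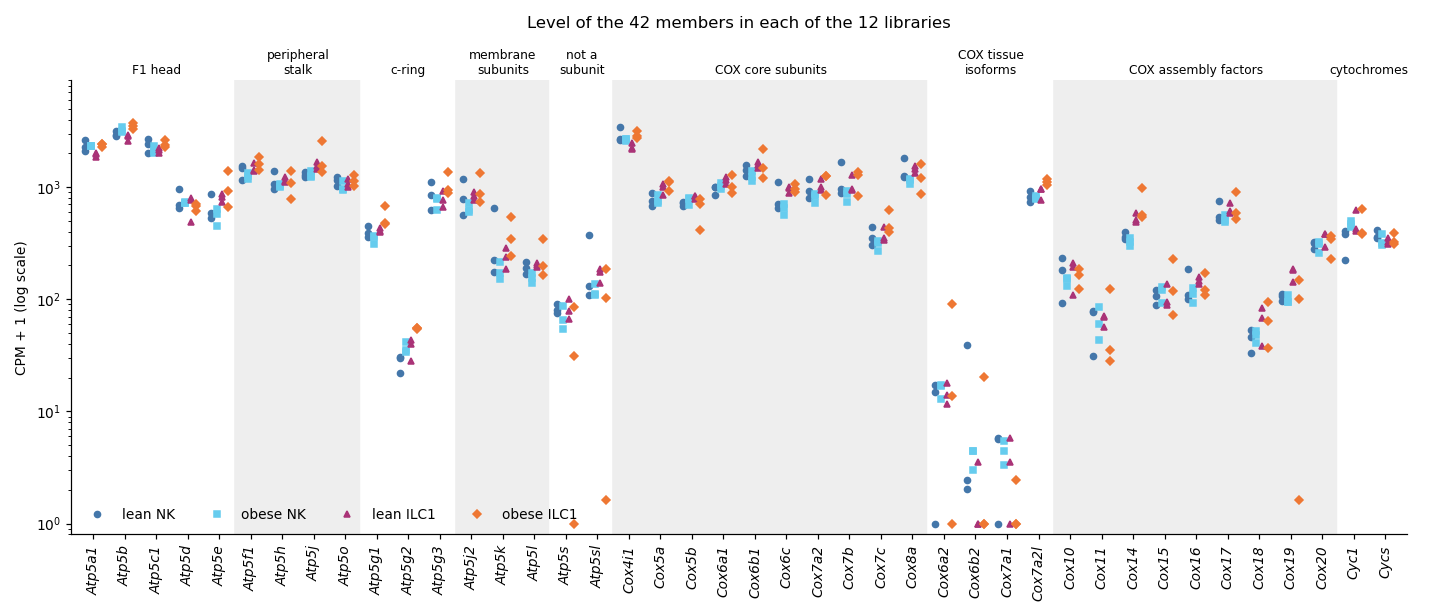
Level of each of the 42 kept members (x axis, grouped by class) as CPM plus 1 on a log scale (y axis), with 1 point per library and a colour and shape per group. Most members lie within a narrow band, while Atp5s, Atp5sl, Cox19 and the tissue isoforms Cox6a2, Cox6b2 and Cox7a1 have single libraries far from the rest.

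The 5 genes of the F1 head and its central stalk had 7980 to 10500 CPM summed. Atp5b, the gene of the catalytic beta subunit (GRCm38 chromosome 10, 128083273 to 128090391), had 2890, 3180 and 2830 CPM in lean NK, 3460, 3120 and 3180 in obese NK, 2910, 2850 and 2550 in lean ILC1, and 3510, 3290 and 3700 in obese ILC1. Every obese ILC1 library was above every lean one, whereas the NK groups overlapped. The log2 fold change with obesity was 0.34 (SE 0.123, unadjusted p = 0.0193, adjusted p = 0.319) in ILC1 and 0.13 (SE 0.123, adjusted p = 1) in NK cells, and between ILC1 and NK cells over both diets it was 0.003 (SE 0.087). The difference in ILC1 was 0.16 with total counts (adjusted p = 0.872), and 0.38 with DESeq2, whose adjusted p was 0.0139. Atp5a1, which encodes the alpha subunit, followed the same order, with 2000, 1950 and 1860 CPM in lean ILC1 below 2420, 2430 and 2260 in obese ILC1, and 2090, 2270 and 2600 in lean and 2340, 2340 and 2310 in obese NK. Its log2 fold change with obesity was 0.29 in ILC1 (SE 0.127, adjusted p = 0.423) and 0.09 with total counts, and between ILC1 and NK cells it was -0.26 in lean mice (SE 0.127, adjusted p = 0.432) and -0.12 over both diets (SE 0.0897, adjusted p = 0.603).

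Atp5c1, the gene of the gamma subunit that turns in the head, had 2020, 2410 and 2660 CPM in lean NK and 2130, 2030 and 2220 in lean ILC1, which overlapped (log2 fold change -0.15, SE 0.142, adjusted p = 0.825). In obese mice it had 2090, 2310 and 2010 CPM in NK cells and 2630, 2390 and 2260 in ILC1, and its difference with obesity in ILC1, 0.19 on the log2 scale, was -0.01 with total counts. Atp5d, the delta subunit gene, had 728, 722 and 724 CPM in obese NK and 610, 682 and 712 in obese ILC1. These groups did not overlap, yet the difference was -0.12 on the log2 scale (SE 0.224, adjusted p = 0.927), and over both diets it was -0.14 (SE 0.158, adjusted p = 0.775), with 650, 691 and 956 CPM in lean NK and 797, 771 and 492 in lean ILC1. Atp5e, the gene of the small epsilon subunit, had 526, 584 and 861 CPM in lean NK, 571, 642 and 447 in obese NK, 732, 809 and 858 in lean ILC1, and 1380, 660 and 912 in obese ILC1. Its obese ILC1 libraries were all above its obese NK libraries, with a log2 fold change of 0.83 (SE 0.288, adjusted p = 0.209), and over both diets it was 0.56 (SE 0.203, adjusted p = 0.148). Without the 3 libraries that stand apart the latter was 0.61, with an adjusted p of 0.0106.

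The peripheral stalk, which holds the head still, is represented by Atp5f1, Atp5h, Atp5j and Atp5o. None of the 4 had an adjusted p under 0.05 in any of the 6 comparisons, and their log2 fold changes lay between -0.171 and -0.015 for the diet in NK cells, between -0.07 and 0.24 for the diet in ILC1, between -0.06 and 0.26 for ILC1 against NK cells in lean mice and between 0.08 and 0.51 in obese mice. Atp5j, the gene of coupling factor 6, marked the upper end of each of these ranges. It had 1240, 1370 and 1290 CPM in lean NK and 1440, 1550 and 1660 in lean ILC1, without overlap, and 1250, 1390 and 1220 in obese NK and 2590, 1360 and 1540 in obese ILC1, where obese ILC1 25 alone was far above the rest. Over the 12 libraries Atp5f1 ranged from 1160 to 1840 CPM, Atp5h from 784 to 1390 and Atp5o from 933 to 1270.

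The c ring is encoded by Atp5g1, Atp5g2 and Atp5g3, which give the same mature subunit with different import sequences. Atp5g3 had 617, 841 and 1110 CPM in lean NK, 805, 782 and 624 in obese NK, 764, 916 and 663 in lean ILC1, and 1370, 891 and 944 in obese ILC1. Atp5g1 had 357, 386 and 451 CPM in lean NK, 358, 365 and 308 in obese NK, 406, 399 and 427 in lean ILC1, and 677, 469 and 477 in obese ILC1. Atp5g2 had 29.1, 29.7 and 20.9 CPM, then 32.8, 34.3 and 41.0, 27.2, 41.9 and 38.8, and 53.9, 53.5 and 54.1 CPM in the same order of groups. Per length of transcript, Atp5g3 was the highest and Atp5g2 the lowest in all 12 libraries, with Atp5g3 at 53.6% to 65.9% of the 3 genes when the shortest principal transcript was used and at 73.4% to 83.0% when the union of exons was used. Atp5g2 took 2.04% to 6.55% on the second scale. The shares of Atp5g1 on that scale were 16.9% ± 2.29 (SD, n = 3) in lean NK, 16.3% ± 0.519 in obese NK, 18.3% ± 2.79 in lean ILC1 and 17.4% ± 0.305 in obese ILC1. The libraries of obese NK cells and obese ILC1 did not overlap in this share, whereas the lean groups did.

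All 3 c ring genes had positive log2 fold changes in obese ILC1 against lean ILC1 (0.40 to 0.58) and against obese NK cells (0.536 to 0.655). None passed the adjusted test with edgeR's quasi-likelihood test: in obese mice Atp5g1 differed between ILC1 and NK cells by 0.655 (SE 0.221, adjusted p = 0.197), Atp5g3 by 0.54 (SE 0.256, adjusted p = 0.387) and Atp5g2 by 0.58 (SE 0.617, adjusted p = 0.82). With DESeq2 the adjusted p of Atp5g1 was 0.0138, and without obese ILC1 25 its difference was 0.46 (edgeR, adjusted p = 0.235). The 3 obese ILC1 libraries of each gene were above all 3 obese NK libraries. With obesity in NK cells Atp5g2 differed by 0.44 (SE 0.617, adjusted p = 1). The medians of the class without obese ILC1 25 were 0.22 for the diet in ILC1 and 0.46 for ILC1 against NK cells in obese mice.

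The membrane subunits e, f and g, which help the enzyme form dimers, are encoded by Atp5k, Atp5j2 and Atp5l. Atp5k had 174, 221 and 652 CPM in lean NK, 169, 212 and 150 in obese NK, 185, 238 and 286 in lean ILC1, and 541, 346 and 241 in obese ILC1. Lean NK 27 and obese ILC1 25 were the 2 highest of the 12 libraries. The log2 fold change with obesity in NK cells was -0.98 (SE 0.496, unadjusted p = 0.0742, adjusted p = 1), and it was -0.15 without lean NK 27. Between ILC1 and NK cells Atp5k differed by -0.56 in lean mice (SE 0.493, adjusted p = 0.806), which became 0.26 without the 3 libraries that stand apart, and by 1.09 in obese mice (SE 0.497, adjusted p = 0.354), which became 0.42. The difference of its diet effect between the cell types was 1.65 (SE 0.699, unadjusted p = 0.0381, adjusted p = 0.793) and 0.81 without lean NK 27. Atp5j2, at 567 to 1340 CPM, and Atp5l, at 138 to 346 CPM, had log2 fold changes of -0.37 and -0.29 for the diet in NK cells and of 0.23 each in ILC1, with no adjusted p under 0.05 in any comparison. Without lean NK 27 the differences in NK cells were -0.05 and -0.185, and without obese ILC1 25 those in ILC1 turned to -0.07 and -0.17.

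Of the 2 genes with Atp5 names that encode no subunit, Atp5s encodes factor B, and Atp5sl, now called Dmac2, a protein needed to assemble complex I. Atp5s had 79.1, 90.2 and 74.5 CPM in lean NK, 64.8, 53.8 and 86.2 in obese NK, 99.0, 77.8 and 65.7 in lean ILC1, and 0, 30.1 and 83.9 in obese ILC1. Atp5sl had 129, 108 and 372 CPM in lean NK, 135, 108 and 110 in obese NK, 173, 138 and 186 in lean ILC1, and 0.62, 185 and 101 in obese ILC1. In obese ILC1 25 these are 0 reads of Atp5s and 1 read of Atp5sl, and the other 11 libraries held 36 to 231 reads of Atp5s and 208 to 784 of Atp5sl. Atp5s differed by -1.08 on the log2 scale with obesity in ILC1 (SE 1.19, adjusted p = 0.837), which became 0.06 without the 3 libraries that stand apart, by -0.84 between ILC1 and NK cells in obese mice (SE 1.18, adjusted p = 0.898) and by -0.42 over both diets (SE 0.833, adjusted p = 0.896). Without the 3 libraries the latter 2 turned to 0.28 and 0.105. For Atp5sl the difference between ILC1 and NK cells of obese mice was -0.30 (SE 1.09, adjusted p = 0.967), and it was 0.28 without obese ILC1 25 and -0.24 without the 3 libraries.

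Cox4i1, which encodes the common form of COX subunit 4, the regulatory subunit that binds ATP, was among the 3 highest members per length of transcript by either length, with Cox8a and Cox6b1. It had 2600, 2660 and 3410 CPM in lean NK, 2660, 2670 and 2570 in obese NK, 2480, 2180 and 2210 in lean ILC1, and 3140, 2730 and 2830 in obese ILC1. All lean ILC1 libraries were below all lean NK libraries, and all obese ILC1 libraries above all obese NK libraries. ILC1 differed from NK cells by -0.34 on the log2 scale in lean mice (SE 0.142, unadjusted p = 0.037, adjusted p = 0.337), 0.14 in obese mice (SE 0.142, adjusted p = 0.807), where it became -0.05 with total counts, and -0.10 over both diets (SE 0.1, adjusted p = 0.738). With obesity it was 0.34 in ILC1 (SE 0.142, unadjusted p = 0.0357, adjusted p = 0.395). The difference of the diet effect between the cell types was 0.48 (SE 0.201, unadjusted p = 0.0374), which did not pass the adjustment (adjusted p = 0.793) and was 0.25 with total counts and 0.33 without lean NK 27.

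Cox5a, the gene of a matrix-side subunit, had 676, 752 and 889 CPM in lean NK and 840, 1060 and 1000 in lean ILC1, which overlapped, and 753, 857 and 716 in obese NK and 1130, 913 and 1100 in obese ILC1, which did not. ILC1 differed from NK cells by 0.33 on the log2 scale in lean mice (SE 0.178, adjusted p = 0.515) and 0.38 over both diets (SE 0.126, unadjusted p = 0.0116, adjusted p = 0.114), and the latter was 0.46 without the 3 libraries that stand apart (adjusted p = 0.0218) and 0.40 with DESeq2 (adjusted p = 0.0231). Cox5b, whose product binds zinc, had 831, 779 and 823 CPM in lean ILC1 and 709, 414 and 784 in obese ILC1, with 736, 715 and 672 in lean and 790, 785 and 690 in obese NK. The single low library was obese ILC1 26. Cox5b differed by -0.35 with obesity in ILC1 (SE 0.223, adjusted p = 0.617), which was -0.04 without the 3 libraries, by -0.25 between ILC1 and NK cells in obese mice (SE 0.223, adjusted p = 0.768), and by -0.44 for the difference of the diet effect (SE 0.315, adjusted p = 0.97). Without the 3 libraries the latter 2 were 0.03 and -0.12.

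Cox6a1, the common form of subunit 6A, had 990, 999 and 844 CPM in lean NK and 1160, 1240 and 1070 in lean ILC1, without overlap (log2 fold change 0.29, SE 0.173, adjusted p = 0.59). In obese mice it had 953, 1080 and 1030 CPM in NK cells (0.12 against lean, SE 0.173, adjusted p = 1) and 1010, 881 and 1290 in ILC1. The difference of its diet effect between ILC1 and NK cells was -0.24 (SE 0.245, adjusted p = 0.996) and 0.10 without the 3 libraries. Cox6c, a small subunit gene, had 645, 701 and 1100 CPM in lean NK, 645, 708 and 558 in obese NK, 876, 989 and 1010 in lean ILC1, and 1060, 906 and 968 in obese ILC1. Only lean NK 27 reached the ILC1 range. Cox6c differed by -0.36 with obesity in NK cells (SE 0.216, adjusted p = 1), which was -0.07 without lean NK 27, and by 0.43 between ILC1 and NK cells over both diets (SE 0.153, unadjusted p = 0.0177, adjusted p = 0.14), and without the 3 libraries that stand apart the latter was 0.55 (adjusted p = 0.00769).

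Lean NK 27 was also the highest lean NK library for Cox7b and Cox8a. Cox7b, on the X chromosome, had 879, 953 and 1660 CPM in lean NK and 862, 928 and 739 in obese NK, a log2 fold change of -0.47 (SE 0.276, adjusted p = 1) that was -0.09 without the 3 libraries. Cox8a had 1230, 1250 and 1800 CPM in lean and 1160, 1180 and 1070 in obese NK, which did not overlap (-0.33, SE 0.227, adjusted p = 1, and -0.12 without lean NK 27), and 1320, 1530 and 1440 in lean and 1590, 866 and 1210 in obese ILC1 (-0.23, SE 0.227, adjusted p = 0.812, and -0.03 without obese ILC1 26). Of the 10 core subunit genes, 3 were above 0 and 7 below for the diet in NK cells (median -0.22, and -0.08 without lean NK 27), and 9 above and 1 below for ILC1 against NK cells in obese mice (median 0.41, and 0.20 without obese ILC1 25). The remaining core genes Cox6b1 (1120 to 2200 CPM), Cox7a2 (724 to 1260 CPM) and Cox7c (270 to 629 CPM) had no adjusted p under 0.05 in the 6 comparisons with all 12 libraries. Without the 3 libraries that stand apart, Cox7a2 differed by 0.44 between ILC1 and NK cells over both diets (adjusted p = 0.0238), in place of 0.29 (adjusted p = 0.339).

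Several COX subunits have forms made mainly in heart and skeletal muscle, in lung or in testis, and the genes of these forms were at or near 0. Cox7b2 and Cox8c had 0 reads in all 12 libraries, Cox8b had 1 read in 1 library, and Cox4i2, the lung form of subunit 4, had 0 to 6 reads, so that Cox4i1 made up 99.8% or more of the 2 subunit 4 genes per length of exons. Cox7a1, the heart and muscle form, had 0 to 4.79 CPM and at most 1.04% of its pair with Cox7a2 on the same scale. Cox6b2, the testis form of subunit 6B, had 0 to 3.48 CPM in 10 libraries, but 38.0 CPM (80 reads) in lean NK 27 and 19.2 CPM (23 reads) in obese ILC1 26. Cox6b1 still made up at least 98.5% of this pair in every library.

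Cox6a2, the heart and muscle form of subunit 6A, had 13.8, 16.2 and 0 CPM in lean NK, 15.8, 12.0 and 16.2 in obese NK, 17.0, 10.6 and 12.9 in lean ILC1, and 0, 90.2 and 12.7 in obese ILC1. It was thus counted in 10 of the 12 libraries, at 0 in the libraries with the fewest genes detected and highest in obese ILC1 26, the library with hepatocyte RNA. Its share of the pair with Cox6a1 per length of exons was 1.02% ± 0.891 (SD, n = 3) in lean NK, 1.47% ± 0.297 in obese NK, 1.2% ± 0.31 in lean ILC1 and 3.52% ± 5.25 in obese ILC1. Exons of Cox6a2 overlap those of Itgad on the opposite strand, and reads of the pair cannot be told apart where counting did not use strand, which is not given in the sources used here. Cox7a2l, grouped with these genes by its name, encodes a factor described as joining complexes III and IV into supercomplexes. Neither its protein nor supercomplexes were measured here. It had 730, 821 and 927 CPM in lean NK, 839, 775 and 804 in obese NK, 957, 958 and 765 in lean ILC1, and 1100, 1050 and 1190 in obese ILC1, where all 3 libraries were above the other 9. Its log2 fold change was 0.32 with obesity in ILC1 (SE 0.162, adjusted p = 0.512) and 0.47 between ILC1 and NK cells in obese mice (SE 0.162, unadjusted p = 0.0152, adjusted p = 0.21). With total counts these were 0.135 and 0.28. DESeq2 gave Cox7a2l an adjusted p of 0.0154 in obese mice and of 0.0382 over both diets, and without the 3 libraries the difference over both diets was 0.37 (edgeR, adjusted p = 0.0434) in place of 0.29 (adjusted p = 0.193).

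Cox14 encodes a small inner membrane protein that couples the synthesis of the mitochondrially encoded COX1 subunit to its assembly, and it had the smallest p of the set in the comparison of cell types. It had 359, 398 and 346 CPM in lean NK, 323, 352 and 296 in obese NK, 510, 585 and 487 in lean ILC1, and 976, 540 and 557 in obese ILC1. Every ILC1 library was above every NK library, and obese ILC1 25 was far above the others. Over both diets it was 1.75-fold higher in ILC1, a log2 fold change of 0.81 (SE 0.179, 95% interval 0.41 to 1.20, adjusted p = 0.0238). It was 0.52 in lean mice (SE 0.252, adjusted p = 0.422) and 1.09 in obese mice (SE 0.254, adjusted p = 0.0727). Within mice the ILC1 library was higher by 0.51, 0.56 and 0.49 on the log2 scale in lean mice and by 1.59, 0.61 and 0.91 in obese mice. With each mouse as a replicate block the log2 fold change was 0.78 and the adjusted p 0.127, and with total counts they were 0.73 and 0.0847. It was 0.64 without obese ILC1 25 (adjusted p = 0.0104) and 0.62 without the 3 libraries that stand apart (adjusted p = 0.00604), whereas leaving out any of 8 other libraries in turn moved the adjusted p to between 0.0508 and 0.0888, at log2 fold changes from 0.75 to 0.83. These were lean NK 25 and 26, the 3 obese NK and the 3 lean ILC1 libraries. Across all alternatives the adjusted p ran from 0.000227 to 0.127.

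The other 8 assembly factors insert or carry copper, make heme a or guide subunits into the membrane, and none had an adjusted p under 0.05 in any comparison. All 9 factors, Cox14 included, were above 0 for ILC1 against NK cells in lean mice, with a median log2 fold change of 0.16, and over both diets, with a median of 0.23. Without lean NK 27 it was 7 of the 9 in both, and without obese ILC1 25 the median over both diets was 0.12. Summed, the 9 genes had 1790, 1920 and 1950 CPM in lean NK and 2160, 2320 and 2230 in lean ILC1, which did not overlap, and 1740, 1840 and 1550 in obese NK and 2940, 1800 and 2190 in obese ILC1, which did. Cox17, a copper chaperone, ranged from 488 to 910 CPM over the 12 libraries and Cox20, a chaperone of the COX2 subunit, from 228 to 382. Cox10 and Cox15, which make heme a, ranged from 92.5 to 231 and from 71.8 to 229 CPM. Cox11, which delivers copper to COX1, had 26.9 to 122 CPM, Cox16 had 90.8 to 184 CPM and Cox18, an insertase, 32.4 to 93.7 CPM. Cox19, also linked to copper delivery, had 111, 94.8 and 105 CPM in lean NK, 94.4, 107 and 92.7 in obese NK, 182, 142 and 185 in lean ILC1, and 0.62, 99.4 and 146 in obese ILC1, where the lowest value is 1 read in obese ILC1 25. The lean groups did not overlap. The difference with obesity in ILC1 was -1.05 on the log2 scale (SE 1.03, adjusted p = 0.812) and -0.21 without the 3 libraries that stand apart, and the difference of the diet effect was -0.97 (SE 1.45, adjusted p = 0.996) and -0.165 without the 3 libraries.

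Cyc1, the heme subunit of complex III that hands electrons to cytochrome c, had 403, 377 and 224 CPM in lean NK, 470, 498 and 441 in obese NK, 627, 408 and 420 in lean ILC1, and 386, 378 and 640 in obese ILC1. In lean NK all libraries were below those of obese NK and of lean ILC1. The log2 fold change was 0.49 with obesity in NK cells (SE 0.307, unadjusted p = 0.141, adjusted p = 1) and 0.53 between lean ILC1 and lean NK cells (SE 0.307, adjusted p = 0.559), while in obese mice the cell types differed by -0.005 (SE 0.306). The difference of the diet effect was -0.54 (SE 0.434, adjusted p = 0.996). Without the 3 libraries the difference was 0.29 in NK cells with obesity, 0.425 between the cell types in obese mice and 0.115 for the diet effect. Cycs, the gene of cytochrome c itself, which also triggers apoptosis when released, had 355, 413 and 353 CPM in lean NK, 303, 384 and 313 in obese NK, 323, 347 and 308 in lean ILC1, and 390, 312 and 326 in obese ILC1. All lean ILC1 libraries were below all lean NK libraries, and the obese groups overlapped. Its log2 fold changes lay between -0.20 and 0.07 in the 4 comparisons of 2 groups, with adjusted p-values from 0.879 to 1.

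**Figure D5:**
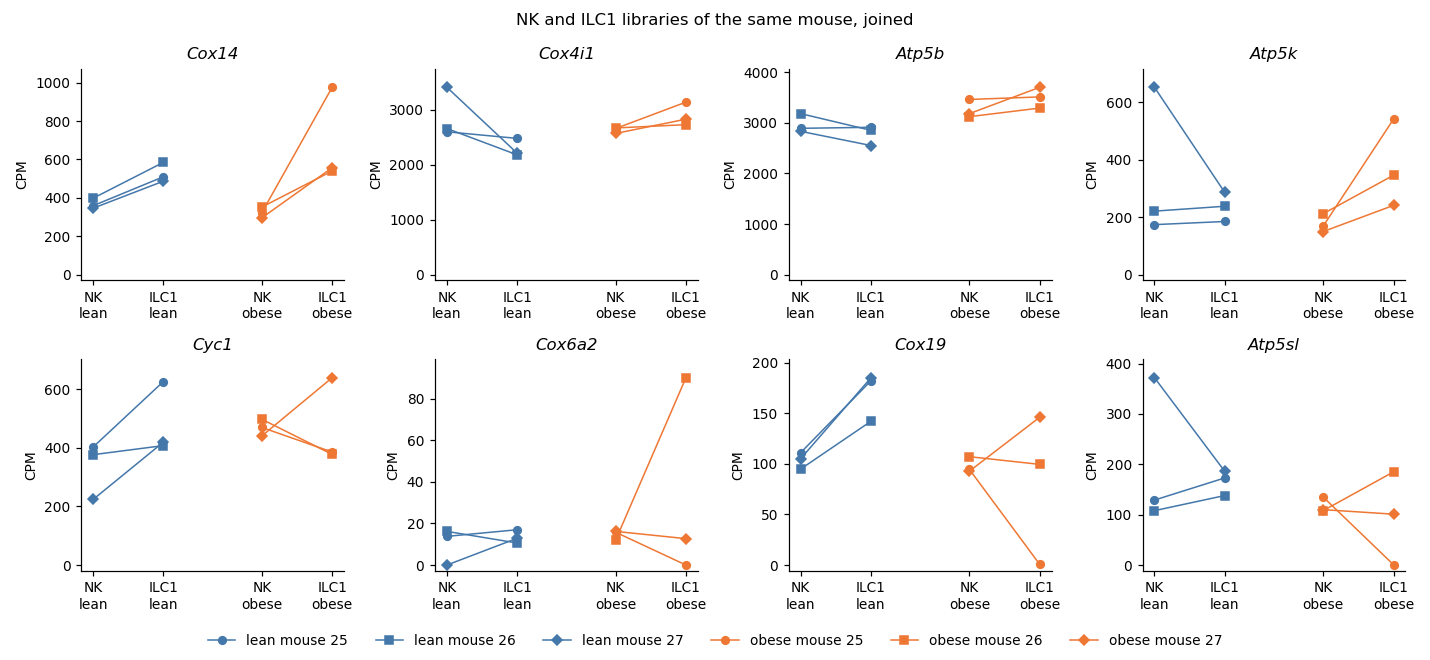
CPM (y axes, linear) of 8 members in NK and ILC1 libraries (x axes), with lines joining the libraries of 1 mouse, blue for lean and orange for obese mice. Cox14 is higher in ILC1 of all 6 mice, Cox4i1 is lower in ILC1 of the lean mice and higher in ILC1 of the obese mice, and Cox19 and Atp5sl are near 0 in ILC1 of obese mouse 25.

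Short transcripts tended to have the larger differences between ILC1 and NK cells of obese mice. The 12 tested members whose principal transcript is shorter than 600 bases had a median log2 fold change of 0.59, and the 28 longer ones 0.24. Within mice the log2 differences of the 12 short members ran from 0.09 to 1.67 in obese mouse 25 and from 0.11 to 1.03 in obese mouse 27. In obese mouse 26 they ran from -0.44 to 0.70. Those of the 28 longer members ran from -6.44 to 1.59, from -1.12 to 1.23 and from -1.27 to 2.82 in the same order. Medians by mouse are not given, so these ranges do not show how much each mouse adds to the relation. Obese ILC1 25 and 26 are among the 3 libraries that stand apart. The relation to length with libraries left out was not tested. In lean mice the medians of the short and the longer members were 0.095 and 0.045. Across the 40 members Spearman's rho between log2 fold change and this length was -0.53 in obese and -0.22 in lean mice, against -0.16 and -0.09 across the 2224 tested genes with a length (85.3% of those tested). With the union of exons as the length rho was -0.09 in obese mice. The members share libraries and a scaling factor per library and are not independent of each other.

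The kept members lie on 18 chromosomes and share no locus. For 15 of them the annotation (GENCODE M21 on GRCm38) holds another gene whose transcript is at least 95% identical over at least 100 bases, 51 such genes for Cycs and 10 for Atp5l, so that reads of these members could be shared with their copies. Exons of 14 kept members overlap a gene on the opposite strand, among them Cox4i1 with Emc8, Atp5j with Gabpa and Atp5a1 with Haus1, and those of 4 overlap a gene on the same strand. Cox14 (chromosome 15, 99725618 to 99728136) has neither an overlap nor a near-identical copy.

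Genes of neighbouring mitochondrial functions were taken from lists by symbol. Of 16 assembly factors of the ATP synthase and COX with other names, all tested, 0 were called in any of the 6 comparisons, with a median log2 fold change of 0.16 for the diet in NK cells, 0.14 for the diet in ILC1, 0.35 for ILC1 against NK cells in lean mice and 0.40 in obese mice. At an unadjusted p under 0.05 there were 2 of these in lean mice and 0 in the other 3 comparisons. Of 11 genes of coenzyme Q synthesis 0 were called, with medians of 0.53, 0.01, 0.51 and 0.60 in the same order. Several of these were nearly absent from lean NK 27, such as Coq5 with 7 reads there and 179 to 514 in the other libraries. Of 17 genes of the citrate cycle and of mitochondrial fatty acid and amino acid oxidation 16 were tested and 0 called, with medians of 0.175, 0.358, 0.094 and 0.245 and with 1 gene at an unadjusted p under 0.05 for the diet in ILC1 and 3 for lean ILC1 against lean NK cells. The assembly factor and oxidation lists also held genes nearly absent from single libraries. In lean NK 27 Atpaf2 and Acadm had 1 read each, against 300 to 839 and 451 to 1541 in the other libraries. In obese ILC1 25 Coa5 had 3 reads and Cpt1a 0, against 620 to 1175 and 217 to 1007 elsewhere. Medians of these lists without such libraries are not given.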

How the data were processed

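RNA was sequenced from NK cells and ILC1 of 3 lean and 3 obese mice (12 libraries in 4 groups of 3). Per the submitters' processing notes, the authors used bcl2fastq 2.19, Trimmomatic 0.36.5, STAR 2.5.2b, featureCounts 1.6.0.2 and the mm10 build, while the annotation and the strand setting of the counting are not given in the sources used here. The deposited table holds raw counts per gene and normalized values that the authors rounded to whole numbers, treated here as a score and used only to recover their scaling factors. In it, 5545 rows had all values, and 1 incomplete row was left out. The members and lists were chosen with earlier results of these data known.

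Counts were tested with edgeR 4.0.16 in R 4.3.3 (TMM, filterByExpr, the quasi-likelihood test, 1 model of 4 groups over all 12 libraries) with Benjamini-Hochberg adjustment. Total counts of 1666637 to 2826766 per library set the precision, and intervals of fold changes include the spread between libraries. P-values rest on the spread within groups pooled over all 12 libraries, from 3 mice per diet. The main fit does not use the pairing of NK and ILC1 libraries by mouse. The script was tested on simulated counts. Within a diet, NK and ILC1 libraries that share a number are from 1 mouse, so a fit with the mouse as a block was the alternative. Deviations of the paired libraries from their group means correlated by r = -0.0133, 0.102 and 0.0556 in lean and -0.0763, -0.0531 and 0.141 in obese mice. Other alternatives were DESeq2 1.42.0, its size factors, total counts, the authors' factors, the likelihood-ratio test, robust dispersions, other filters, only the libraries compared, each library left out, and, chosen after seeing the data, leaving out the 3 libraries that stand apart.

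Members given in full were, for each comparison, up to 4 in each direction with the smallest unadjusted p, and Cyc1, Cycs and Atp5b. The tissue isoform sets were also covered, but Cox4i2, Cox6b1, Cox6b2, Cox7a1 and Cox7a2 are given wholly or mostly as ranges. Positions are from GENCODE M21 on GRCm38. Levels were compared between genes only per length, using the union of exons and the shortest principal transcript. Within each group, no pair of libraries held identical values.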

Additional observations from a re-analysis of the deposited data

Results flagged for a closer look

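Cox4i1 was singled out because its difference between ILC1 and NK cells had opposite signs in the 2 diets, with every lean ILC1 library below every lean NK library and every obese ILC1 library above every obese NK library. The difference of the diet effect between ILC1 and NK cells was 0.476 on the log2 scale (edgeR's quasi-likelihood test, unadjusted p = 0.0374, adjusted p = 0.793), so it did not pass the adjustment over all genes. It was 0.253 with total counts, 0.326 without lean NK 27, the highest NK library for this gene, and 0.287 without the 3 libraries that stand apart. The obese part of the contrast, 0.138, became -0.049 with total counts.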

How the results depend on the processing

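No member was called between the diets, in lean mice or in the difference of the diet effect under any alternative run. Between ILC1 and NK cells of obese mice 1 member, Cox14, was called with DESeq2 and with at least 10 counts in every library, and leaving out 1 library in turn gave 0 to 1 called members, the 1 being found without obese ILC1 26 or 27. Over both diets 1 member, Cox14, had an adjusted p under 0.05 when no fold change threshold was used, against 3 with DESeq2 (Cox14, Cox5a and Cox7a2l), 2 without lean NK 27 (Cox14 and Cox6c), 6 without the 3 libraries that stand apart, and 0 with total counts or with the mouse as a block. With total counts in place of TMM the median member log2 fold change was -0.052 for the diet in ILC1, 0.166 for ILC1 against NK cells in obese mice and 0.044 for the difference of the diet effect, while the medians of all genes were -0.181, -0.174 and -0.288, and the mean summed level in lean ILC1 was 33100 CPM. Over the other alternatives these 3 medians ranged from -0.015 to 0.211, from 0.2 to 0.391 and from 0.115 to 0.319, and the medians for the diet in NK cells from -0.248 to -0.028, in lean mice from -0.018 to 0.198 and over both diets from 0.104 to 0.279. The cause was not tested.

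With the mouse as a replicate block 0 members were called, the medians were 0.101 in lean mice, 0.234 in obese mice, 0.215 over both diets and 0.2 for the difference, and the genes called among all tested were 21, 0, 46 and 0 in place of 60, 24, 113 and 0. Lean and obese mice of 1 number are different animals, and their number as a replicate block gave medians of -0.149 in NK cells and 0.104 in ILC1. DESeq2 called 8, 77, 151, 154, 222 and 21 of all genes in the 6 comparisons, and the likelihood-ratio test 2, 57, 122, 122, 232 and 9.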
